A study of Homo sapiens with 6 samples.

Results

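The transcripts described here encode 10 proteins of the small nucleolar ribonucleoprotein particles (snoRNPs): the H/ACA core proteins DKC1, NOP10, NHP2 and GAR1, the H/ACA assembly factors NAF1 and SHQ1, and the box C/D core proteins NOP56, NOP58, FBL and NHP2L1 (now named SNU13). They were taken by symbol from the 26334 gene rows of the deposited count table, and all 10 passed the filter on low counts that left 16117 genes for testing. RNA was sequenced from MCF10DCIS.com, a human breast cancer cell line of the MCF10A series, after infection with a pRSI vector carrying either an shRNA against WDR5 (shWDR5, 3 samples) or a control shRNA against luciferase (shLuc, 3 samples). Cells of both groups carried the same TagRFP and puromycin cassette driven by the UbiC promoter, were selected with puromycin at 3 µg/ml and were grown in the same DMEM/F12 medium with horse serum. The comparison asks which transcripts change when WDR5, a core subunit of the complexes that methylate histone H3 at lysine 4, is silenced. In this vector the U6 promoter drives the shRNA. The study describes pooled WDR5 shRNAs for transplanted MCF10DCIS.com cells and biological replicates as its general practice, but neither is stated for these libraries. The labels do not say whether the 3 samples of a group came from separate cultures, so p-values measure the spread between these samples only.

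snoRNPs are nucleolar enzymes in which a small guide RNA base-pairs with ribosomal RNA and positions a catalytic protein on the nucleotide to be modified. In box H/ACA particles the catalytic protein is dyskerin (DKC1), a pseudouridine synthase, held with NOP10, NHP2 and GAR1, and the same set of proteins sits on telomerase RNA. In box C/D particles it is fibrillarin (FBL), a ribose 2′-O-methyltransferase, held by the paired scaffold proteins NOP56 and NOP58 on a guide RNA first bound by NHP2L1. These particles are made in quantity by growing cells, and inherited loss of dyskerin function causes dyskeratosis congenita.

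Of the 10 transcripts, DKC1, NOP56 and FBL passed the test between shWDR5 and shLuc, which 56.5% of all genes tested also passed. The start-site windows of these members are shown so that those that moved down and up can be set side by side. The windows are those of RefSeq on build GRCh38.p14, from 250 bases before to 50 bases after the annotated start, and 7 of the 10 genes had such an entry (DKC1, NOP10, NHP2, GAR1, SHQ1, NOP56 and FBL). Capitals mark every match, on either strand, to the E-box CACGTG bound by MYC and MAX, the palindromic NRF1 site, the ETS core CCGGAA and the CCAAT box CCAAT.
DKC1 (chrX:154762614-154762913, plus strand): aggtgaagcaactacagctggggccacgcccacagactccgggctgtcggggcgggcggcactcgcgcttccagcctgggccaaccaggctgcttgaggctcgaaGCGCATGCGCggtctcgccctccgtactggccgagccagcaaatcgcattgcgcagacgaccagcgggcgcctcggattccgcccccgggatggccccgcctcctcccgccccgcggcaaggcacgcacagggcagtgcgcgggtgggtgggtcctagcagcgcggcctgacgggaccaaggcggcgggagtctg
NOP56 (chr20:2652382-2652681, plus strand): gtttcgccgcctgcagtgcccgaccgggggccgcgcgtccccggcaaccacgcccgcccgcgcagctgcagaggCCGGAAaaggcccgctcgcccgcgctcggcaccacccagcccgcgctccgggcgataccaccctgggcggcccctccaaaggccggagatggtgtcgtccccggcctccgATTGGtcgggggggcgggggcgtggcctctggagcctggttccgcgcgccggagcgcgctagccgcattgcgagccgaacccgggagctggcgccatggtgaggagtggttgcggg
FBL (chr19:39846330-39846629, minus strand): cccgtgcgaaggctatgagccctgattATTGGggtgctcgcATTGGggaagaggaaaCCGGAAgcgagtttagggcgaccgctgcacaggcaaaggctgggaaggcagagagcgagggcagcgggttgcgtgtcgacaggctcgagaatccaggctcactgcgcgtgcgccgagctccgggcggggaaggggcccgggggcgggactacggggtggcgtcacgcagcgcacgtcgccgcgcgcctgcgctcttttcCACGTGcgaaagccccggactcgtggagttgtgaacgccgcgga
The DKC1 window held the NRF1 site, 145 bases before the start, and no match to the other 3 motifs. NOP56 held 1 ETS core and 1 CCAAT box, and FBL held 1 E-box just after its start, 1 ETS core and 2 CCAAT boxes, so no motif was shared by all 3. Across the 8 windows of the 7 genes (GAR1 has 2), the E-box was present in 3 windows (NOP10, GAR1 and FBL), against 7.23% of all 34943 RefSeq windows. The NRF1 site was present in 1 window, against 1.23% of all windows, the ETS core in 5, against 17.2%, and the CCAAT box in 6, against 34.6%. Member windows had a GC content of 52.7% to 76.3%, where the median of all windows was 58.7%. The motifs were chosen after the windows had been read, and a match describes the letters only.

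Libraries held between 38218108 and 57640167 counted reads. Levels below are in CPM unless another unit is named. CPM is the read count scaled to a common library size with TMM factors that correct for composition. WDR5 itself, the target of the shRNA, stood at 52.6, 48.5 and 51.3 CPM in the shLuc samples and at 23.4, 24.4 and 20.8 CPM in the shWDR5 samples. The groups did not overlap, and the difference was -1.15 on the log2 scale (SE 0.07, edgeR adjusted p = 8.67e-07). The epithelial label was checked against 9 markers of basal or general breast epithelium, all of which were detected. In shWDR5, 6 were higher (KRT5, KRT14, KRT17, KRT6A, TP63 and ITGB4). The other 3 were lower: EGFR and the general epithelial genes CDH1 and EPCAM, with log2 differences of -0.27, -1.03 and -0.33. Their summed level ran from 8024 to 8829.9 CPM in shLuc and from 12713 to 14403 CPM in shWDR5. Of 4 luminal hormone receptor markers, GATA3 and FOXA1 were lower, ESR1 did not pass the test and PGR had at most 2 reads in any sample, with a summed level of 61.9 to 72.3 CPM in shLuc and 47.6 to 54.1 CPM in shWDR5. Of 9 markers of immune, endothelial and fibroblast cells, CD3E and LUM were at 0 reads in every sample, PTPRC, COL3A1 and DCN had at most 7 reads and VWF at most 12. The summed level of those 9 ran from 38.6 to 41.7 CPM in shLuc and from 28.6 to 33.8 CPM in shWDR5, where PECAM1 and COL1A1 were lower and CD68 did not pass the test. The part of these marker shifts in the results below was not tested.

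DKC1 and FBL were lower and NOP56 was higher in shWDR5, at an adjusted p under 0.05, and the other 7 did not pass the test. Over all genes tested, 29.9% were called lower and 26.6% were called higher, or 56.5% in either direction, so 2 lower and 1 higher of 10 was a smaller share than all genes gave. All 3 shWDR5 values lay below all 3 shLuc values for the same 2 members and above them for the same 1, against 32.4% and 29.9% of all genes, or 62.3% in either direction. The median log2 difference of the 10 members was 0.08, beside -0.01 over all genes tested. Summed over the 10 transcripts, the level was 878.0 to 942.2 CPM in shLuc and 908.5 to 943.6 CPM in shWDR5, which overlapped. With stricter limits (an absolute log2 difference of at least 0.6 and a level above 0.5 RPKM, the CPM divided by the kilobases of exon), DKC1 was the 1 member called, where 10.5% of all genes passed as lower and 7.90% as higher.

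**Figure D1:**
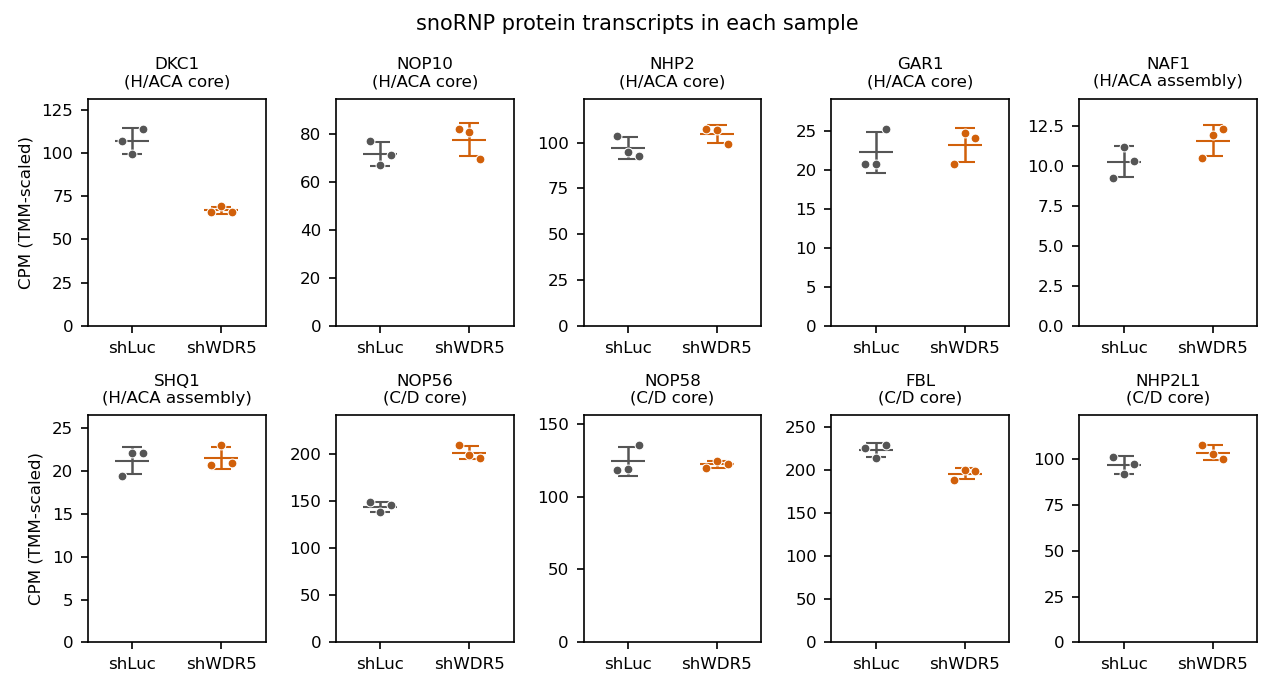
Level of each of the 10 transcripts in TMM-scaled CPM, from 0, with the 3 shLuc samples in grey and the 3 shWDR5 samples in orange (points are samples, dashes and bars are the mean ± SD). The groups stand apart for DKC1, NOP56 and FBL and overlap for the other 7.

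**Figure D2:**
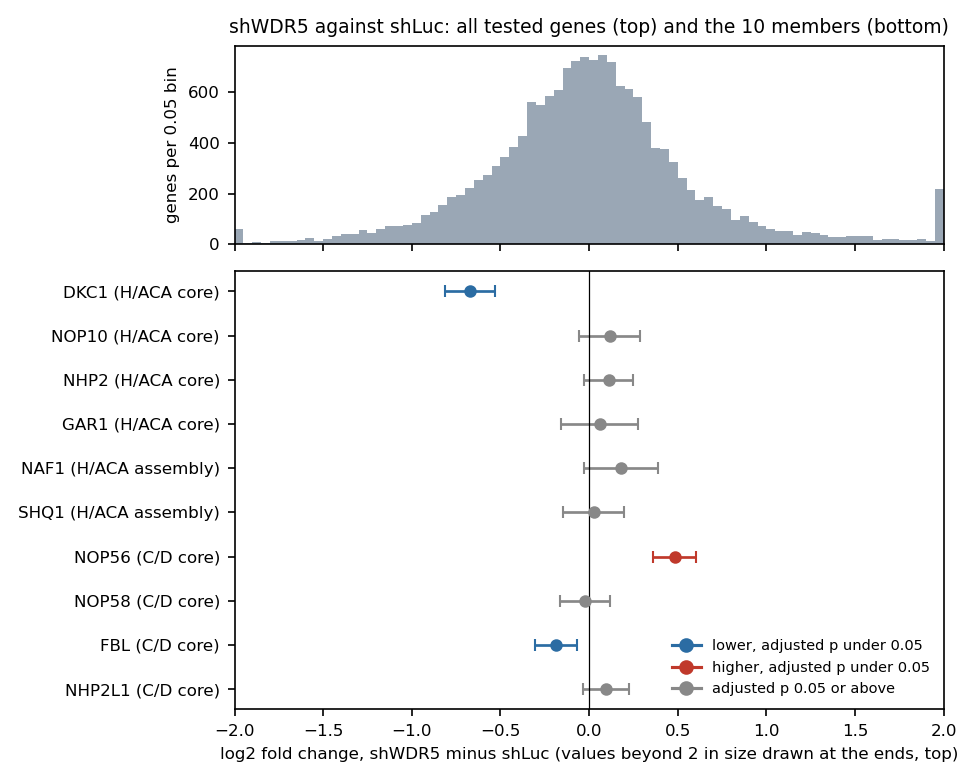
Log2 difference between shWDR5 and shLuc for all 16117 tested genes (top, a histogram) and for the 10 members (bottom, estimate with its 95% confidence interval). DKC1 at -0.67 and NOP56 at 0.48 lie on opposite sides, FBL lies at -0.19, and the other 7 intervals cross 0.

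DKC1, the pseudouridine synthase of the H/ACA particle (hg19 chromosome X, bases 153991017 to 154005964, plus strand), had the largest difference of the 10. Its level was 107.0, 99.2 and 114.1 CPM in the shLuc samples and 65.8, 69.3 and 65.8 CPM in the shWDR5 samples. Every shWDR5 sample was below every shLuc sample, by a margin well above the SD of either group (7.50 and 2.05 CPM). DKC1 fell by 37.3% (log2 difference -0.67, SE 0.06, edgeR adjusted p = 1.09e-05), a difference larger in size than that of 79.6% of the genes tested. DKC1 was called lower under each of the 13 other settings tried, with differences from -0.73 to -0.62 on the log2 scale. The paper already names DKC1 among cell cycle genes that were lower after WDR5 silencing in patient-derived xenograft cells, which were not examined here.

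The proteins that dyskerin carries in the mature H/ACA particle did not pass the test. NOP10, the smallest member, which binds dyskerin next to its active site, ranged from 66.9 to 76.7 CPM in shLuc and from 69.6 to 82.1 CPM in shWDR5, and the groups overlapped (log2 difference 0.12, 95% interval -0.06 to 0.29, edgeR adjusted p = 0.231). NHP2, the L7Ae-family protein of the particle, ranged from 92.5 to 103.7 CPM and from 99.0 to 107.7 CPM (log2 difference 0.11, 95% interval -0.03 to 0.25, edgeR adjusted p = 0.166). NHP2 passed the test as higher without shLuc replicate 1 (log2 difference 0.18, adjusted p = 0.0361). GAR1, which carries glycine- and arginine-rich stretches and helps release the modified RNA, ranged from 20.8 to 25.4 CPM and from 20.8 to 24.8 CPM. Its groups covered almost the same span (log2 difference 0.06, 95% interval -0.16 to 0.28, edgeR adjusted p = 0.631). The lower ends of these 3 intervals all lay above the DKC1 difference of -0.67.

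The H/ACA assembly factors were the members with the lowest levels per kilobase of exon. NAF1, which holds the place of GAR1 on dyskerin while the particle is being made, stood at 9.27, 11.2 and 10.3 CPM in shLuc and at 10.5, 11.9 and 12.4 CPM in shWDR5. The groups overlapped, and the log2 difference of 0.18 did not pass the test (95% interval -0.03 to 0.39, edgeR adjusted p = 0.131). Without shWDR5 replicate 1 the NAF1 difference was 0.25 and passed the test (adjusted p = 0.0497). SHQ1, the chaperone that holds free dyskerin before it meets its RNA, stood at 19.3, 22.1 and 22.1 CPM in shLuc and at 20.7, 23.0 and 20.9 CPM in shWDR5. No difference in SHQ1 was resolved (log2 difference 0.02, 95% interval -0.15 to 0.20, edgeR adjusted p = 0.811), and its sign was not stable, since it was below 0 with total-count scaling (-0.03) and without shLuc replicate 1 or shWDR5 replicate 2.

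Of the 4 box C/D proteins, NOP56 was higher, FBL was lower, and NOP58 and NHP2L1 did not pass the test. NOP56, 1 of the paired scaffold proteins (hg19 chromosome 20, bases 2633178 to 2639039, plus strand), stood at 148.5, 138.4 and 145.4 CPM in the shLuc samples and at 209.5, 199.2 and 195.5 CPM in the shWDR5 samples. Every shWDR5 sample was above every shLuc sample, and NOP56 was 1.40 times as high in shWDR5 (log2 difference 0.48, SE 0.05, edgeR adjusted p = 3.42e-05). It was called higher under each of the 13 other settings, with differences from 0.43 to 0.52. Its partner NOP58 (hg19 chromosome 2, bases 203130515 to 203168384, plus strand), which occupies the matching place on the guide RNA, stood at 117.9, 118.9 and 135.3 CPM in shLuc and at 119.7, 124.2 and 122.2 CPM in shWDR5. All 3 shWDR5 samples of NOP58 lay within the shLuc range. The log2 difference of NOP58 was -0.02 (95% interval -0.16 to 0.12, edgeR adjusted p = 0.782) and was above 0 with upper-quartile scaling (0.01) and without shLuc replicate 3 (0.04).

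FBL, the methyltransferase of the box C/D particle (hg19 chromosome 19, bases 40325093 to 40337054, minus strand), stood at 225.7, 213.6 and 228.7 CPM in shLuc and at 188.1, 200.1 and 198.9 CPM in shWDR5. The groups did not overlap, but the gap between the lowest shLuc and the highest shWDR5 sample was narrow. FBL fell by 12.1% (log2 difference -0.19, SE 0.05, edgeR adjusted p = 0.0125), a size exceeded by most genes tested, since only 32.5% of them had a smaller one. The FBL call was lost without shLuc replicate 1 (log2 difference -0.16, adjusted p = 0.0527) and without shLuc replicate 3 (-0.17, adjusted p = 0.0563). NHP2L1, the L7Ae-family protein that first recognises the guide RNA and that also sits on U4 spliceosomal RNA, ranged from 92.1 to 101.6 CPM in shLuc and from 100.05 to 107.9 CPM in shWDR5. The groups overlapped, and NHP2L1 did not pass the test (log2 difference 0.10, 95% interval -0.04 to 0.23, edgeR adjusted p = 0.194).

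Ratios of partner transcripts within a sample were compared next, since they do not depend on how libraries are scaled. Levels per kilobase of annotated exon (RPKM) were used, and with 3 samples against 3 the exact two-sided permutation test cannot give a p under 0.1. NOP56 and NOP58 stood near parity in shLuc, with ratios of 1.13, 1.04 and 0.962, and NOP56 exceeded NOP58 in shWDR5, with ratios of 1.57, 1.44 and 1.43. The ratio was 1.42 times as high in shWDR5 (exact permutation p = 0.1, 0.167 after adjustment over the 5 ratios). DKC1 to SHQ1, the enzyme over its chaperone, went from 3.48, 2.82 and 3.25 to 2.00, 1.90 and 1.99, or to 0.618 times the shLuc ratio (exact permutation p = 0.1, adjusted 0.167). DKC1 to FBL, the catalytic subunits of the H/ACA and box C/D particles, went from 0.122, 0.120 and 0.129 to 0.0901, 0.0892 and 0.0853, or to 0.715 times (exact permutation p = 0.1, adjusted 0.167). In these 3 ratios the groups did not overlap, which is the most that this test can register. The ratios reuse the counts of the gene tests above and are not separate evidence. Since SHQ1 and NOP58 differed little between groups (log2 differences 0.02 and -0.02), the ratios to them mostly repeat the DKC1 and NOP56 differences. GAR1 to NAF1, the mature over the assembly subunit, ranged from 3.39 to 4.49 in shLuc and from 3.58 to 3.79 in shWDR5 (exact permutation p = 0.4, adjusted 0.5). NHP2 to NHP2L1, the related L7Ae proteins of the H/ACA and box C/D particles, ranged from 1.92 to 2.08 and from 2.01 to 2.11 (exact permutation p = 0.8, adjusted 0.8), and in both ratios the groups overlapped.

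**Figure D3:**
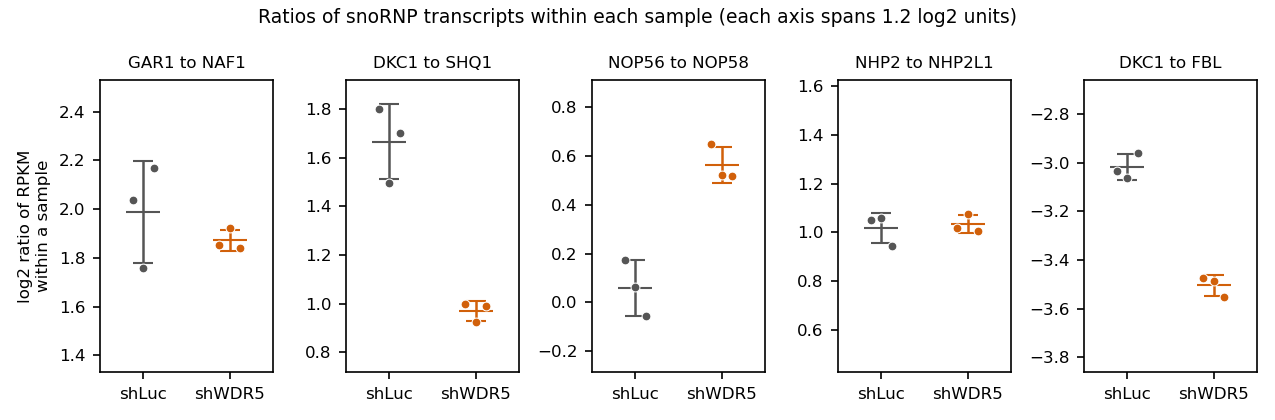
Log2 ratio of the RPKM of 2 snoRNP transcripts within each sample, shLuc in grey and shWDR5 in orange, with the mean ± SD of 3 samples. All 5 vertical axes cover the same span, and the groups separate for DKC1 to SHQ1, NOP56 to NOP58 and DKC1 to FBL.

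The levels per kilobase set the order of the 10 transcripts. In shLuc, FBL was highest at 191.1 ± 6.87 RPKM (SD, n = 3), followed by NOP10 at 133.7 ± 9.15 and NHP2 at 113.5 ± 6.93. NOP56 (65.7 ± 2.36), NOP58 (63.1 ± 4.98) and NHP2L1 (56.0 ± 2.73) formed the middle of the range, DKC1 stood at 23.6 ± 1.66 and GAR1 at 17.6 ± 2.08, and the assembly factors SHQ1 (7.44 ± 0.564) and NAF1 (4.44 ± 0.422) were lowest. NOP56 and NOP58 were the only neighbours in this order whose sample ranges overlapped. In shWDR5, NOP56 stood clear of NOP58 at 91.8 ± 3.31 RPKM, and NOP58 (62.1 ± 1.13) and NHP2L1 (59.9 ± 2.29) were the neighbours whose ranges overlapped. DKC1, at 14.8 ± 0.453 RPKM in shWDR5, moved below GAR1 at 18.4 ± 1.72, and the order of the other 8 members was kept. The DKC1 row counts 4523 bases of exon, among them stretches that contain the intron-encoded snoRNAs SNORA36A and SNORA56, so its length includes sequence that other DKC1 transcripts splice out and its RPKM depends on that annotation. The NOP56 row likewise includes the 86 bases of SNORD86, so its near parity with NOP58 in shLuc also depends on the annotated lengths.

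**Figure D4:**
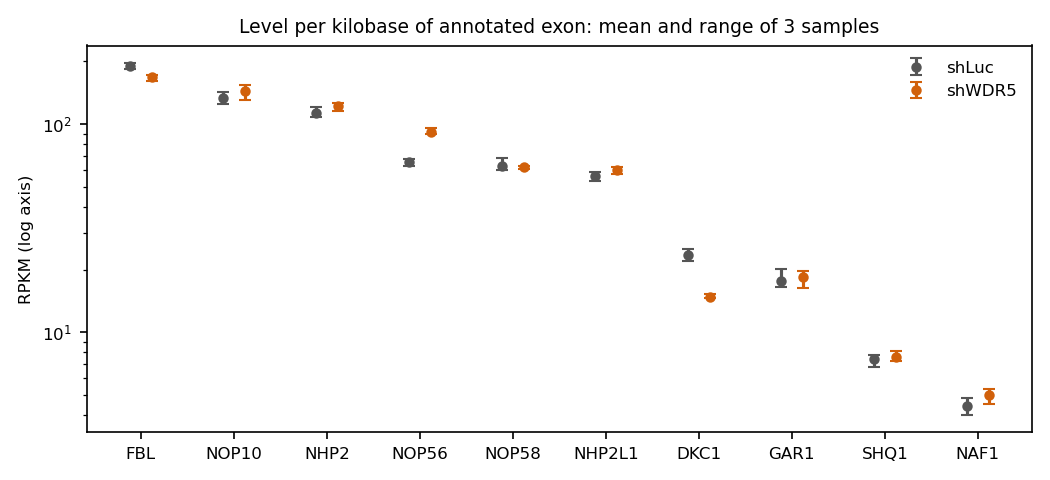
Level per kilobase of annotated exon (RPKM, log axis) of the 10 transcripts, ordered by their mean in shLuc, with points at the mean of 3 samples and bars over their range, shLuc in grey and shWDR5 in orange. The order is shared by both groups except that DKC1 drops below GAR1 in shWDR5.

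Several of these genes are themselves hosts of snoRNAs in their introns. The table held 10 such snoRNA rows, in DKC1, NOP56 and NOP58, and 4 of them, all in NOP56, had enough reads to be tested. SNORA51 (hg19 chromosome 20, bases 2635713 to 2635844) had 51, 30 and 41 reads in shLuc and 30, 30 and 25 reads in shWDR5, and after scaling the groups did not overlap. SNORA51 was lower by the test (log2 difference -0.72, SE 0.20, edgeR adjusted p = 0.00947), where its host NOP56 was higher. SNORD57, SNORD56 and SNORD110, in other introns of NOP56, had 43 to 87 reads in a sample and did not pass the test, with log2 differences of -0.32, -0.01 and 0.20. SNORA36A and SNORA56 in DKC1 and SNORD86 in NOP56 were at 0 reads in every sample, and each lies wholly inside exon sequence of its host in the deposited coordinates. The 3 snoRNA rows in NOP58 had at most 9 reads. Among other rows that overlap member exons, MIR664B (61 bases shared with DKC1) was at 0 reads and MIR1292 (1 base shared with NOP56) had at most 6 reads in a sample. Mature snoRNAs carry no poly-A tail and these libraries were poly-A selected, and the part of this selection, or of the counting of overlapping rows, in the low counts was not tested.

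Outside the particles, 18 factors known to assemble, export or cap snoRNPs were examined, and 11 of them were lower in shWDR5, 1 was higher and 6 did not pass the test, with a median log2 difference of -0.22. Over all genes tested 29.9% were lower, and the list was described without a test of its own. HSP90AA1, the inducible HSP90 that works with the R2TP co-chaperone on box C/D proteins, fell from 3710 ± 138.0 to 2136 ± 51.3 CPM (SD, n = 3, log2 difference -0.80, edgeR adjusted p = 9.47e-07). TCOF1, the nucleolar treacle protein that binds NOP56 and polymerase I, fell by 0.43 on the log2 scale (edgeR adjusted p = 8.44e-05). All 4 R2TP subunits were lower by smaller amounts, with log2 differences of -0.22 for RUVBL1, -0.17 for RUVBL2, -0.32 for RPAP3 and -0.39 for PIH1D1. C12orf45, a chaperone factor that joins NOP58 to R2TP, was the 1 factor that rose, by a log2 difference of 0.39 (edgeR adjusted p = 0.00435). HSP90AB1, the constitutive HSP90, stood at 1903 ± 79.7 CPM in shLuc and 1876 ± 88.3 CPM in shWDR5 and did not pass the test. The R2TP subunits and HSP90AB1 lay outside the rule for named genes and were added after their values were seen.

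Partners of dyskerin in telomerase and in Cajal body particles were tested in 5 of 6 cases. Of these, 2 were lower and 1 was higher (40% and 20%, where all genes tested gave 29.9% and 26.6%), and 2 did not pass the test. WRAP53, which brings these RNAs to Cajal bodies, was lower by 0.37 on the log2 scale (edgeR adjusted p = 0.00977) and COIL, the coilin scaffold, by 0.26 (adjusted p = 0.00664). PARN, the nuclease that trims telomerase RNA and H/ACA snoRNA ends, was higher by 0.15 (edgeR adjusted p = 0.0400). TERT, the telomerase catalytic subunit, had 13 to 34 reads in shLuc and 11 to 18 reads in shWDR5. TERT did not pass the test (log2 difference -0.69, SE 0.33, edgeR adjusted p = 0.0993). Its scaled shWDR5 values all lay below the shLuc values, as they did for 32.4% of all genes. TERC, the telomerase RNA, had at most 4 reads in a sample and was not tested.

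The U3 processome, a user of box C/D proteins, contains the U3 snoRNP and the proteins that load it on the ribosomal RNA precursor. Of 20 such genes, 6 were lower, 5 were higher and 9 did not pass the test, close to the 29.9% and 26.6% of all genes, with a median log2 difference of -0.02. IMP3 (log2 difference 0.82, edgeR adjusted p = 2.37e-05) and IMP4 (0.51, adjusted p = 8.28e-05), proteins of the U3 snoRNP, were higher, and MPHOSPH10, which forms a complex with both, did not pass the test (-0.04, adjusted p = 0.682). DCAF13 fell by 0.85 (edgeR adjusted p = 2.83e-06) and UTP20 fell by 0.72 (adjusted p = 1.23e-05) on the log2 scale. MPHOSPH10 lay outside the rule for named genes and was added after its value was seen.

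**Figure D5:**
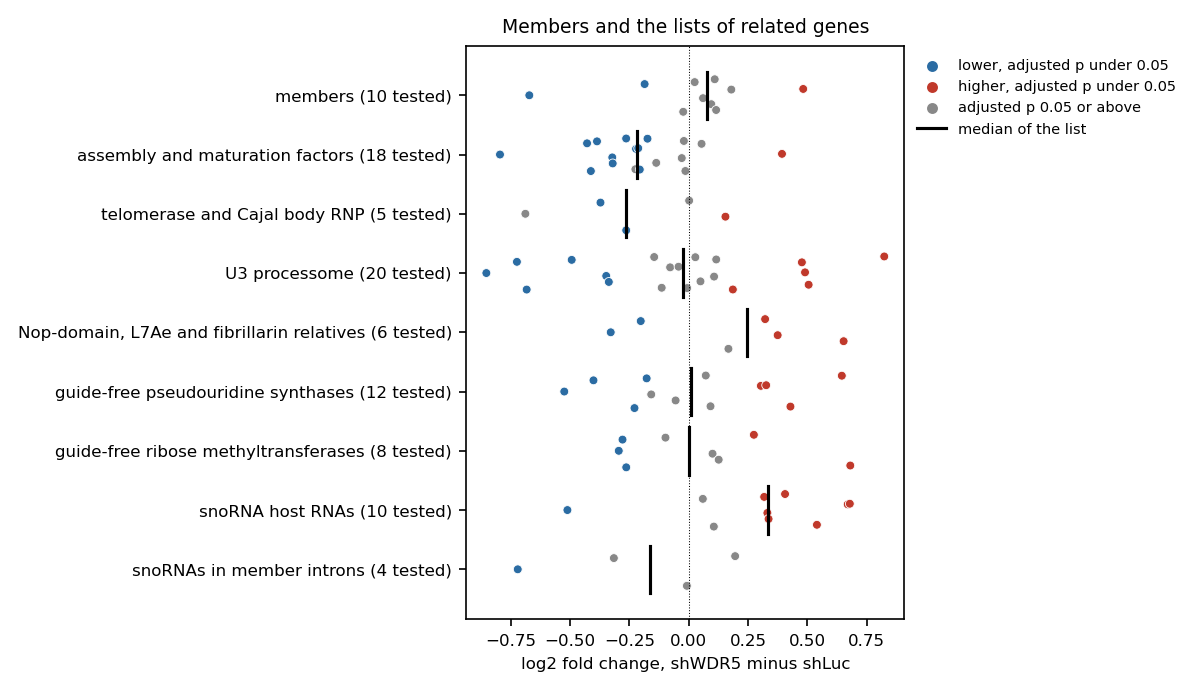
Log2 difference between shWDR5 and shLuc for the tested genes of the members and of 8 lists of related genes, coloured by the edgeR call, with a black bar at each list's median. The medians run from -0.26 for the telomerase and Cajal body list to 0.33 for the snoRNA host RNAs, and the members' median is 0.08.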

How the data were processed

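Poly-A RNA libraries (TruSeq) of 3 shLuc and 3 shWDR5 samples were analysed. The deposited values are raw read counts per gene over all its annotated exons, and the submitters' processing notes name TopHat2 2.1.0, featureCounts and edgeR 3.2.2 on hg19. Strand setting and treatment of multi-mapping reads are not given in the sources used here, so reads shared with gene copies or overlapping rows could be lost or split. The authors' table of fold changes and p-values was not used.

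Counts were filtered with filterByExpr (minimum count 10), TMM-scaled and tested with the quasi-likelihood F-test of edgeR 4.0.16 (R 4.3.3), without a block, with Benjamini-Hochberg adjustment over 16117 genes and a threshold of 0.05. The SE is the log2 difference over the square root of F, and intervals are at 95%. RPKM used the deposited lengths. Ratios were tested with exact permutation (scipy 1.17.1). The procedure was tested on simulated counts with few changed genes, balanced in direction, and independent samples. These data differ in having many more called genes, so the simulation does not check the scaling or the lack of a block. Replicates of a group differed by more than sampling noise (chi-square per degree of freedom 7.15 to 18.2).

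The members and lists were chosen with earlier results of these data known. Named genes were the members, WDR5, the 2 largest called rises and falls of each list, and rows overlapping a member. Outside this rule, TERT, TERC, RPP38, FBLL1 and the genes marked so in the text were named after their values were seen, as were SNORD56, SNORD57 and SNORD110. Cell type markers came from their own list. 2 listed symbols were matched through RefSeq synonyms. No row was a named pseudogene of a member. 1 basal marker is not reported here and was left out of that list. Alternatives were 3 other scalings (total-count scaling was chosen after seeing the data), DESeq2 1.42.0, the edgeR likelihood ratio test, no filter, a replicate block, a fold limit and leaving out each sample.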

Additional observations from a re-analysis of the deposited data

How the results depend on the processing

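DKC1, NOP56 and WDR5 kept their direction and stayed past the threshold under all 13 alternatives (other scalings, DESeq2, the likelihood ratio test, no filter, the replicate block and each sample left out). With each sample left out in turn, 1 to 2 members were lower and 1 to 2 were higher, SHQ1 ranged from -0.0266 to 0.0555 and NOP58 from -0.0623 to 0.0416 on the log2 scale. SHQ1 was -0.0321 with total-count scaling and NOP58 was 0.0135 with upper-quartile scaling. With the fold limit of 0.6, which by construction keeps fewer genes, 1 member was lower and 0 were higher (1 was higher by edgeR without the limit), 1939 genes were lower and 1751 higher, and 5 and 6 genes of the related lists were lower and higher, in place of 30 and 23. The 5 ratios moved by less than 1 SD with each sample left out and with same-numbered samples paired. Over all genes, DESeq2 called 4351 lower and 4125 higher, upper-quartile scaling turned the balance (4390 lower, 4663 higher) and total-count scaling widened it (5498 lower, 3705 higher).

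Deviations of same-numbered samples correlated at 0.56, 0.06 and 0.20. For shLuc replicate 1, the values with shWDR5 replicates 2 and 3 were -0.16 and -0.49. Not every sample correlated best with its own number, since shLuc replicate 2 did so with shWDR5 replicate 3 (0.36). The labels give only a shared number, and whether same-numbered samples were handled together was not tested. With the replicate block, 3 members were higher, NHP2 (adjusted p = 0.0355) and NAF1 (0.0381) being added to NOP56, and 5511 genes were lower and 4901 higher in place of 4821 and 4291. Counts of reads for the snoRNA rows and TERT were low enough that sampling limits their values.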

Other observations

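Enzymes that make the same modifications as the snoRNPs without a guide RNA were split in direction. Of 12 guide-free pseudouridine synthases, 4 were lower, 4 were higher and 4 did not pass the test, with a median log2 difference of 0.01. These shares were near the 29.9% lower and 26.6% higher of all genes tested. RPUSD1 (log2 difference 0.65, edgeR adjusted p = 1.72e-05) and RPUSD3 (0.43, adjusted p = 3.04e-04) rose, and PUS7L (-0.53, adjusted p = 0.0233) and RPUSD2 (-0.40, adjusted p = 0.00175) fell. Of 9 guide-free ribose methyltransferases, 8 were tested, with 3 lower and 2 higher (37.5% and 25%, where all genes tested gave 29.9% and 26.6%). FTSJ1, which methylates tRNA, rose by a log2 difference of 0.68 (edgeR adjusted p = 4.74e-06) and MRM1, a mitochondrial rRNA enzyme, by 0.27 (adjusted p = 0.0368). CMTR2, a cap methyltransferase, fell by 0.30 (edgeR adjusted p = 0.0397), with overlapping groups, and RNMTL1, a mitochondrial rRNA enzyme, fell by 0.28 (adjusted p = 0.0105).

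Long non-coding RNAs that host snoRNAs were mostly higher. Of 10 such RNAs (GAS5 and 9 SNHG genes), 7 were higher, 1 was lower and 2 did not pass the test, with a median log2 difference of 0.33, where 26.6% of all genes were higher. SNHG7 (log2 difference 0.68, edgeR adjusted p = 5.76e-06) and SNHG8 (0.67, adjusted p = 2.78e-04) rose most, and SNHG15 fell by 0.51 (adjusted p = 0.00102).

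Relatives of the members by protein fold went both ways, with 33.3% lower and 50% higher, where all genes tested gave 29.9% and 26.6%. Of 6 tested, the L7Ae-family genes RPS12 (log2 difference 0.65, edgeR adjusted p = 1.25e-04), SECISBP2 (0.38, adjusted p = 2.98e-04) and RPL30 (0.32) rose, RPL7A fell by 0.33 (adjusted p = 8.85e-04), and PRPF31, the Nop-domain protein of the spliceosome, fell by 0.20 (adjusted p = 0.0177). RPP38 did not pass the test, and FBLL1, a paralog of FBL, had at most 3 reads in a sample. RPL30 was named after its value was seen.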
